A study of Mus musculus with 4 samples.

Results

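The mouse transcripts of 7 tetraspanins, Cd9, Cd63, Cd81, Cd82, Cd37, Cd53 and Cd151, were followed across the leukocytes of healing skin. They were taken by symbol from the 21739 gene symbols listed in at least 1 of 4 single-cell libraries, and all 7 had counts in every library. Each library came from the periwound skin of 1 C57/BL6j mouse aged 6 weeks, collected on day 7 after an 8 mm wound. The 2 Control mice were injected under the skin with PBS and the 2 hucMSC-Exo mice with 100 µg of exosomes from human umbilical cord mesenchymal stem cells, both every 48 h. Which library belongs to which group was taken from the sample titles. Reads were counted against the mouse genome, so a human transcript carried in by the exosomes has no row of its own.

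Tetraspanins are small membrane proteins that cross the membrane 4 times and gather integrins, immunoglobulin-family receptors and MHC molecules into clusters. CD9, CD63 and CD81 are the proteins by which exosomes are most often recognised. CD63 resides mainly in late endosomes, lysosomes and secretory granules, where exosomes form and from which granules are released. CD81 is found on lymphocytes and myeloid cells. CD37 and CD53 are largely restricted to leukocytes, CD82 restrains cell migration and adhesion, and CD151 binds laminin-receptor integrins in epithelia and endothelia.

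The files held 7178 barcodes, from 1098 to 2422 in a library. These are fewer than the cell numbers given by the study for these mice. A cell was kept if it had between 200 and 3000 detected genes and no more than 10% mitochondrial counts, which left 952 and 2074 cells in Control 1 and Control 2 and 1416 and 2001 cells in hucMSC-Exo 1 and hucMSC-Exo 2. Kept cells carried 4779405 to 11243740 unique molecular identifiers (UMIs, each standing for 1 captured transcript molecule) in a library, with medians of 3747 to 4392.5 per cell. Ptprc, the pan-leukocyte gene that encodes CD45, was detected in 81.4% to 87.1% of them. The labels name parts of the gut as the tissue and skin as the cell type. All 8 skin epithelium markers were found at a summed 549 to 1080 UMIs per 1000000 (CPM) over the deposited cells of a library, against 5.37 to 8.41 CPM for 12 gut epithelium markers, of which 3 to 5 had a count. File names carry letters that pair the libraries otherwise than the titles do. Groups follow the titles here, and every direction between hucMSC-Exo and Control rests on them. The titles sit poorly with the study's cell numbers. Neutrophil-like cells, by the markers below, numbered 54 and 345 in Control 1 and Control 2 and 94 and 547 in hucMSC-Exo 1 and hucMSC-Exo 2. Control 2 alone thus held more than the neutrophils the study counted in its whole control group. The low counts lie in the libraries numbered 1. Grouping by the file letters was not tested, and libraries may be in the wrong group here.

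Cells were placed in 14 leukocyte classes by marker genes that did not include the tetraspanins, and 194 of the 6443 kept cells stayed without a class, while 73 were keratinocyte-like and 24 fibroblast-like. The classes with the most cells were dendritic epidermal T cell-like (DETC, the resident γδ T cells of the epidermis; 1084 cells), neutrophil-like (1040), C1q macrophage-like (797), IL-17 γδ T cell-like (686), CD4 T cell-like (660) and monocyte-like (518). Osteoclast-like macrophages, marked by genes such as Ctsk and Acp5, numbered 314, group 2 innate lymphoid cell-like (ILC2) cells 265 and dendritic cell-like cells 162. Basophil-like and mast cell-like cells were rare, at 104 and 38, and Control 1 held 2 basophil-like cells. Values below are in the order Control 1, Control 2, hucMSC-Exo 1, hucMSC-Exo 2 unless stated, and a class entered the levels and tests of a library only where that library held at least 10 of its cells. Values said to be pooled, and shares of cells not given by library, use the cells of all 4 libraries. A level is the sum of a gene's UMIs over a class in a library, per 1000000 UMIs of that class. All cells carried some RNA of other cells: Krt14, a keratin of basal keratinocytes, stood at 192 to 329 CPM in C1q macrophages and at 761 to 1359 CPM in neutrophils.

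In the mm10 (GRCm38) assembly, with GENCODE vM21 coordinates, Cd9 (ENSMUSG00000030342) lies on chromosome 6, 125460266 to 125494791, minus strand, and Cd63 (ENSMUSG00000025351) on chromosome 10, 128900989 to 128912822, plus strand. Cd82 (ENSMUSG00000027215) lies on chromosome 2, 93419111 to 93463140, minus strand, and Cd53 (ENSMUSG00000040747) on chromosome 3, 106759921 to 106790149, minus strand. The other 3 are all on chromosome 7. Cd37 (ENSMUSG00000030798) spans 45233632 to 45239115 on the minus strand, Cd151 (ENSMUSG00000025510) 141467392 to 141471473 on the plus strand, and Cd81 (ENSMUSG00000037706) 143052739 to 143067934 on the plus strand. Counted antisense genes overlap Cd9 (Gm28809 and Gm26728), Cd81 (R74862), Cd37 (Tead2) and Cd151 (Gm10575). The strand setting of the counting is not given in the sources used here.

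**Figure D1:**
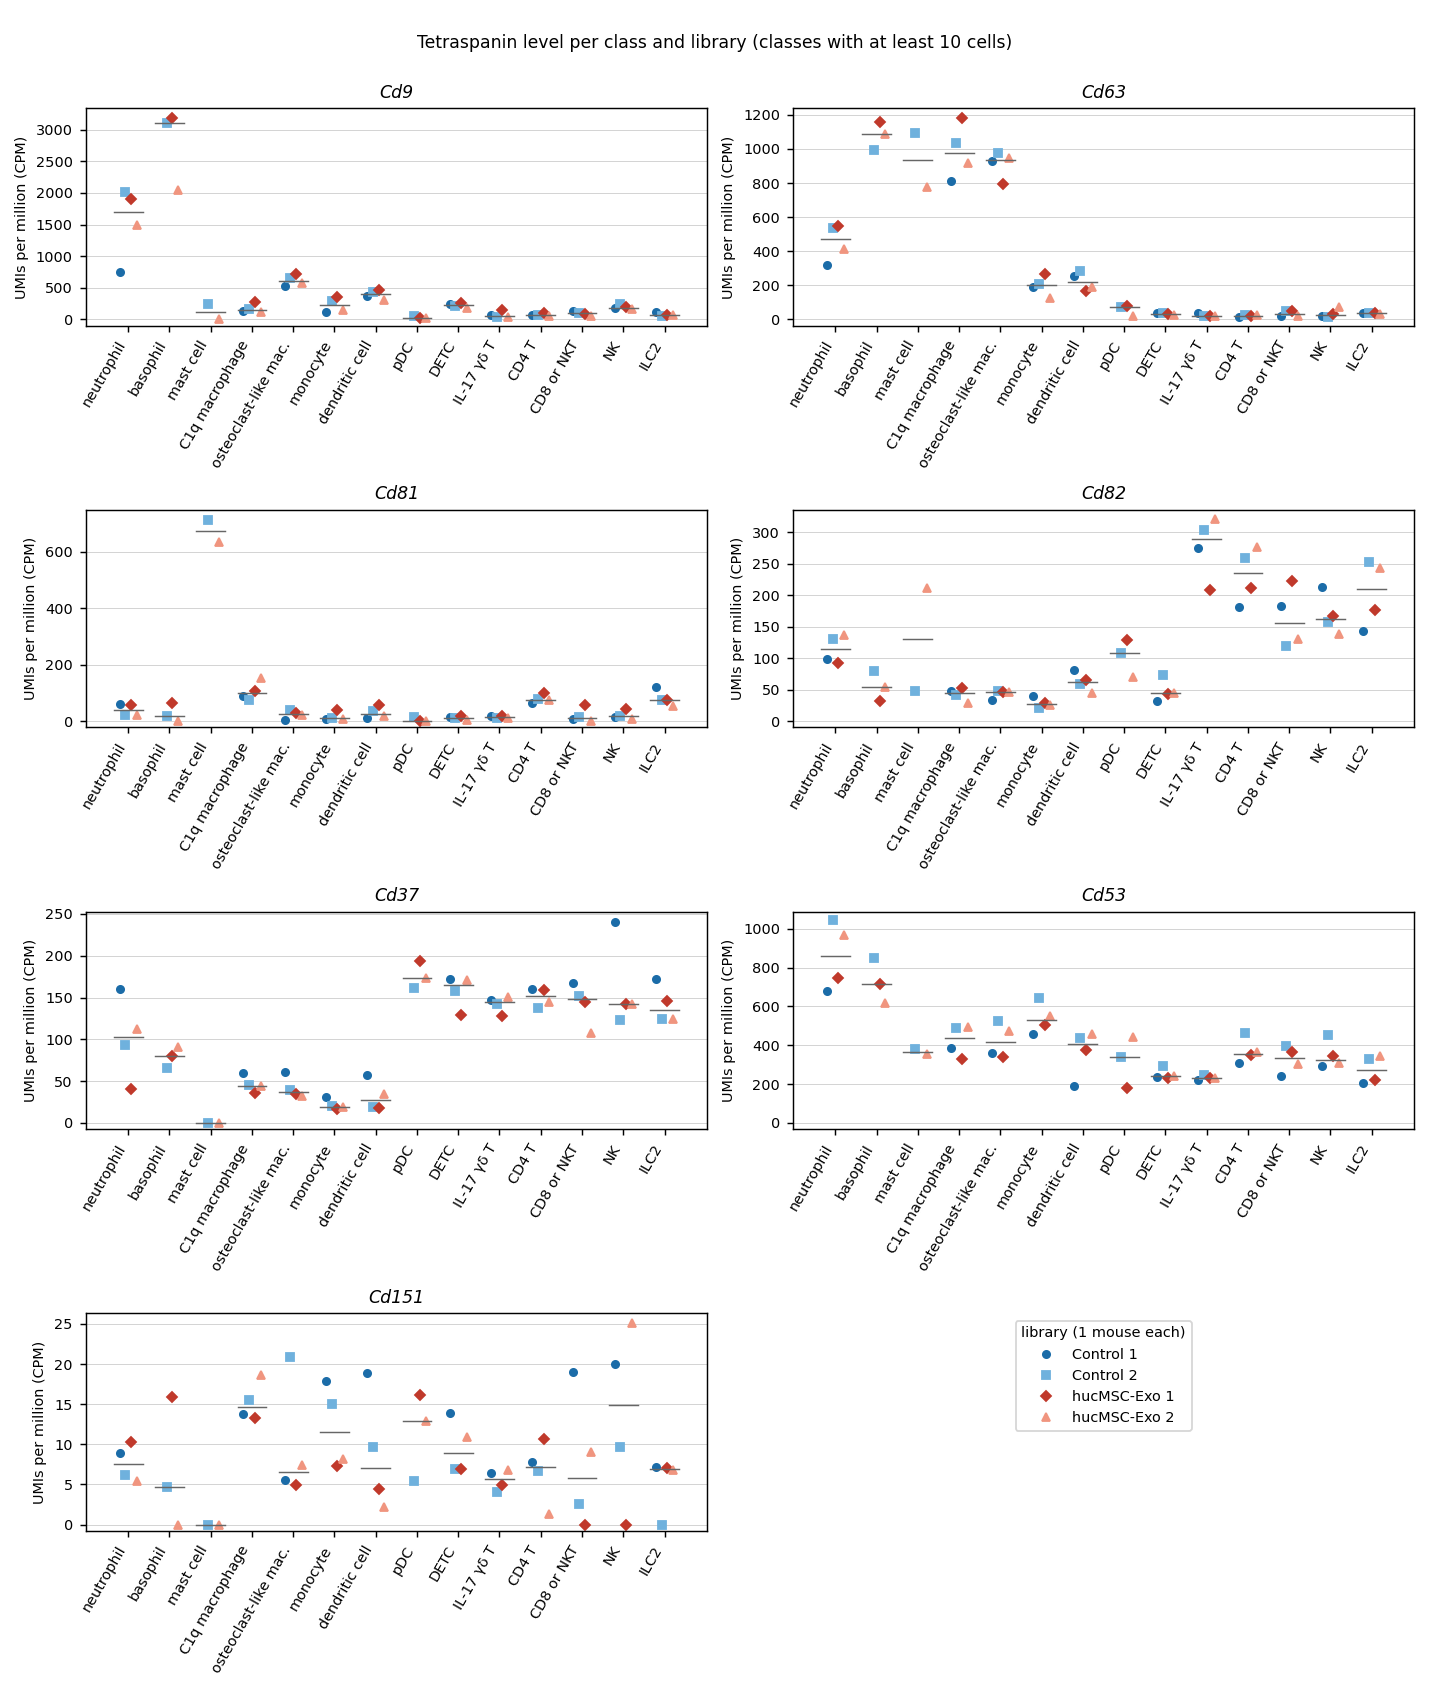
Level of each tetraspanin in CPM (linear axes, 1 panel per gene) in 14 leukocyte classes, with 1 point per library of at least 10 cells, blue for Control and red for hucMSC-Exo, and a line at the median. Cd9 is highest in basophils (2050 to 3180 CPM) and neutrophils (749 to 2022 CPM), Cd63 in basophils, mast cells and the C1q and osteoclast-like macrophages (777 to 1180 CPM), and Cd81 in mast cells (636 and 712 CPM).

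Cd9, whose protein organises integrins and is a standard exosome marker, was highest in the basophils and neutrophils. Neutrophils held 749, 2022, 1902 and 1491 CPM of Cd9. Basophils held 3101, 3180 and 2050 CPM in Control 2, hucMSC-Exo 1 and hucMSC-Exo 2. Control 1 was the lowest neutrophil library, and its 54 neutrophils also held 21934 CPM of S100a8, the neutrophil calcium-binding protein gene, against 41177 to 47614 CPM in the other libraries. The part of that difference in the Cd9 level was not tested. Osteoclast-like macrophages came next, at 522, 663, 719 and 568 CPM, and dendritic cells followed at 365, 436, 472 and 302 CPM. These first 4 classes did not overlap with their neighbours in the order of medians. DETC (174 to 258 CPM), monocytes (112 to 356 CPM), NK cells (167 to 249 CPM) and C1q macrophages (112 to 282 CPM) all overlapped. The monocytes, whose median was below that of DETC, also overlapped with the dendritic cells. Plasmacytoid dendritic cells had the lowest median, with values of 16.1 to 59.3 CPM.

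Cd63, which marks late endosomes, lysosomes and secretory granules, was highest in macrophages and in the granule-bearing basophils and mast cells. C1q macrophages held 812, 1035, 1180 and 919 CPM and osteoclast-like macrophages 927, 974, 795 and 944 CPM. Basophils held 993, 1161 and 1088 CPM in the 3 libraries, and mast cells 1093 and 777 CPM in the Control 2 and hucMSC-Exo 2 libraries with enough cells. The ranges of these 4 classes overlapped, except that the osteoclast-like macrophages ended just under the basophils. Neutrophils were lower, at 321, 534, 549 and 411 CPM, and monocytes stood at 191, 209, 265 and 123 CPM. The T and innate lymphoid cells as a whole held 30.2, 29.8, 29.5 and 25.6 CPM, a narrow range far under every myeloid class except plasmacytoid dendritic cells (19.3 to 80.5 CPM).

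Cd81, a further exosome marker, was highest in the few mast cells. The 38 mast cells, with a median of 1280 UMIs each, yielded 11, 15, 15 and 9 UMIs of Cd81, which pooled to 913 CPM (exact Poisson 95% interval 678 to 1204 CPM, counting error only). The 2 libraries with enough mast cells gave 712 and 636 CPM, in Control 2 and hucMSC-Exo 2. Outside mast cells the highest values were those of C1q macrophages (90.8, 74.9, 106 and 151 CPM), CD4 T cells (64.5, 77.9, 99.1 and 73.6 CPM) and ILC2 (122, 75.5, 75.4 and 53.9 CPM), whose ranges overlapped. Osteoclast-like macrophages held 5.55, 39.8, 27.6 and 22.2 CPM and monocytes 8.97, 11.6, 40.1 and 5.95 CPM, both below every C1q macrophage value.

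Cd82, which restrains migration, was highest in lymphocytes other than DETC. IL-17 γδ T cells held 274, 303, 209 and 320 CPM, CD4 T cells 181, 260, 212 and 277 CPM and ILC2 143, 253, 177 and 243 CPM. NK cells (138 to 213 CPM) and CD8 or NKT cells (120 to 223 CPM) were in the same span. DETC held only 31.6, 73.1, 43.2 and 44.7 CPM and did not overlap with any other lymphoid class. Among myeloid cells, neutrophils held 98.1, 131, 92.3 and 136 CPM, whereas C1q macrophages (28.8 to 53.2 CPM) and monocytes (20.8 to 40.3 CPM) were low.

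Cd37 and Cd53, the leukocyte tetraspanins, were highest in different classes, with overlap between the lineages. Cd37 was held by plasmacytoid dendritic cells at 162, 193 and 174 CPM in the 3 libraries with enough cells, and by DETC at 172, 158, 130 and 171 CPM. CD4 T cells (138 to 160 CPM) and IL-17 γδ T cells (128 to 151 CPM) overlapped with DETC. C1q macrophages stood at 60.2, 45.7, 35.2 and 43.6 CPM and monocytes at 31.4, 20, 16.4 and 18.6 CPM. Neutrophils held 160, 93.0, 41.0 and 113 CPM, a range that overlapped with the lymphoid classes. Basophils held 65.9, 79.5 and 90.7 CPM in the libraries with enough cells. Mast cells yielded 1 UMI of Cd37 in 38 cells. Cd53 was present in every class. It reached 678, 1044, 749 and 969 CPM in neutrophils, 852, 716 and 617 CPM in basophils and 457, 643, 505 and 552 CPM in monocytes. Its medians were lowest in IL-17 γδ T cells (223 to 245 CPM) and DETC (229 to 292 CPM), which overlapped. CD4 T cells (310 to 465 CPM) overlapped with C1q macrophages (329 to 491 CPM).

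Cd151, the laminin-integrin partner, was scarce in all classes. Its medians ran from 0 to 14.9 CPM, and the highest value in a library with enough cells was 25.0 CPM, in NK cells of hucMSC-Exo 2. C1q macrophages held 13.8, 15.5, 13.3 and 18.6 CPM, and over all kept cells the 4 libraries held 12.8, 10.3, 7.90 and 8.39 CPM.

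At equal depth most neutrophils and basophils had at least 1 UMI of Cd9, and most C1q macrophages, basophils and mast cells had 1 of Cd63. Neutrophils had a median of 2109.5 UMIs per cell, fewer than the other large classes, so 1000 UMIs were drawn from each cell and the 208 shallower cells were left out. At this depth Cd9 was detected in 75.9% of neutrophils (exact Clopper-Pearson 95% interval 73.1% to 78.5%; 90.0% before drawing) and 88.2% of basophils (80.4% to 93.8%). It was detected in 39.2% of osteoclast-like macrophages, 11.6% of C1q macrophages, 21.7% of DETC and 5.26% of IL-17 γδ T cells (3.71% to 7.20%; 18.5% before drawing). Free RNA differed between classes, as Krt14 did, and no leukocyte class is known to lack these genes outright. The lowest large class therefore serves as a reference only, whose share can hold expression and which sets no limit for another class. A share at its level cannot be told from background. For Cd63 the reference class was the CD4 T cells, at 2.15%, against 54.8% of C1q macrophages (51.2% to 58.4%; 86.3% before drawing) and 60% of the 25 mast cells deep enough.

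Cd81 had a UMI in 56.0% of those 25 mast cells (34.9% to 75.6%; 63.2% of all 38 before drawing) and in 7.75% of C1q macrophages (5.94% to 9.91%; 32.2% before drawing), against 0.464% of DETC (0.151% to 1.08%). Cd82 was detected in 22.5% of IL-17 γδ T cells (19.4% to 25.8%; 71.3% before drawing), 21.0% of CD4 T cells and 3.06% of DETC (2.12% to 4.28%; 10.5% before drawing). Cd37 was found in 14.0% of all T and innate lymphoid cells and 3.42% of mononuclear phagocytes, and Cd53 in 59.4% of neutrophils, against 19.3% of IL-17 γδ T cells, its lowest large class. Cd151 was found in 0.866% of all kept cells. After drawing, 0 of 306 osteoclast-like macrophages had a UMI of Cd151, a limit of 0.98% that holds at this depth only, since 8.60% of these cells had one before drawing. Before drawing, 44.5% and 19.0% of those lymphoid cells and phagocytes had a UMI of Cd37, 81.0% of neutrophils one of Cd53 and 4.41% of all kept cells one of Cd151. Intervals and limits cover counting error only.

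**Figure D2:**
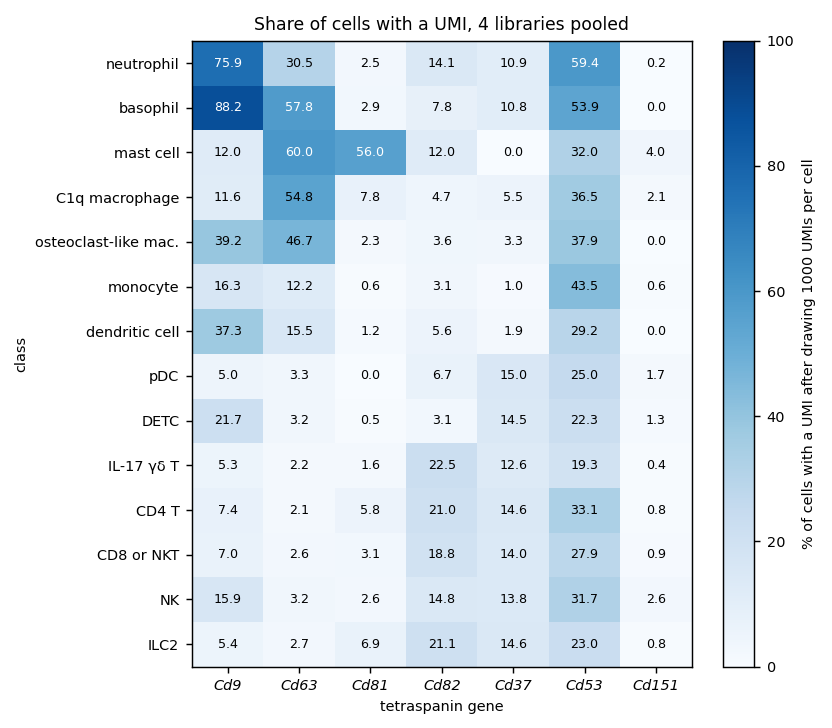
Percent of cells with at least 1 UMI of each tetraspanin (columns) in each class (rows), over the 4 libraries pooled and after 1000 UMIs were drawn from each cell, with darker blue for a higher share. Cd9 is darkest in basophils (88.2%) and neutrophils (75.9%), Cd63 in mast cells (60%), basophils (57.8%) and C1q macrophages (54.8%), and Cd81 in mast cells (56.0%).

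Whether the tetraspanins differed between classes was tested by edgeR's quasi-likelihood test on the sums per library, with the library as a block and Benjamini-Hochberg adjustment over all genes tested. Of 53 tests of a tetraspanin in 8 class pairs, 28 passed an adjusted p of 0.05. Most pairs differed in much of the transcriptome, so each count of the 7 is given beside the percentage of all tested genes that passed in that pair. The 4 pairs set against C1q macrophages share those cells, and the 7 genes in a pair are not replicates of one another.

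Between neutrophils and C1q macrophages 6 of 7 tetraspanins differed, against 55.2% of 7902 genes. Cd9 was 11.4-fold higher in neutrophils (log2 fold change 3.51 ± 0.30 SE, adjusted p = 3.1e-11) and higher in 4 of 4 libraries. Without Control 1 this value was 3.85. Cd82 (1.90 ± 0.29, adjusted p = 1.9e-06), Cd37 (1.46 ± 0.26, adjusted p = 2.3e-05) and Cd53 (1.35 ± 0.24, adjusted p = 1.9e-05) were also higher in neutrophils. Cd63 (-0.79 ± 0.24, adjusted p = 0.0056) and Cd81 (-1.37 ± 0.29, adjusted p = 2.3e-04) were lower. The median over the 7 was 1.35, against -0.18 for all genes.

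Osteoclast-like macrophages and C1q macrophages were the closest of the myeloid pairs, with 2 of 7 tetraspanins against 6.42% of 7745 genes. Cd9 was 3.84-fold higher in the osteoclast-like cells (1.94 ± 0.17, adjusted p = 2.3e-05) and Cd81 was 3.51-fold lower (-1.81 ± 0.29, adjusted p = 0.0017). Without Control 2 the Cd81 value was -2.45. Cd63 did not pass the test, and the 95% interval of its difference ran from -0.40 to 0.21 on the log2 scale. Cd53 did not pass at 0.02 ± 0.13, but it was lower in the osteoclast-like cells when cells of over 3000 genes were kept (-0.83, adjusted p = 0.0090).

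Monocytes differed from C1q macrophages in 5 of 7 tetraspanins, against 27.1% of 7523 genes. Cd63 was 4.81-fold lower in monocytes (-2.26 ± 0.14, adjusted p = 2.6e-08), Cd81 was 6.82-fold lower (-2.77 ± 0.34, adjusted p = 3.0e-05) and Cd37 was 2.03-fold lower (-1.02 ± 0.19, adjusted p = 0.0013). The Cd81 value was -3.46 without hucMSC-Exo 1 and -2.18 without hucMSC-Exo 2. Cd53 was slightly higher (0.46 ± 0.12, adjusted p = 0.012), and so was Cd9 (0.52 ± 0.16, adjusted p = 0.024), in 3 of 4 libraries. With classes taken from Leiden clusters the Cd9 value turned to -0.070 (adjusted p = 0.83). Neither call was stable to the loss of a library. Without Control 2 the adjusted p was 0.087 for Cd53 and 0.24 for Cd9, without hucMSC-Exo 1 it was 0.059 for Cd53, and without hucMSC-Exo 2 it was 0.12 for Cd9.

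Dendritic cells differed from C1q macrophages in 4 of 7 tetraspanins, against 35.7% of 7443 genes. Cd9 was 2.68-fold higher (1.42 ± 0.20, adjusted p = 8.0e-06), while Cd63 was 3.99-fold lower (-1.995 ± 0.20, adjusted p = 1.4e-07) and Cd81 was 2.89-fold lower (-1.53 ± 0.31, adjusted p = 6.5e-04). Cd82 passed narrowly (0.71 ± 0.24, adjusted p = 0.023), and its adjusted p was 0.14 without Control 2 and 0.11 without hucMSC-Exo 2. In basophils against neutrophils, tested in the 3 libraries with at least 10 basophils, 2 of 6 tetraspanins differed, against 51.1% of 2581 genes. Cd63 was 2.43-fold higher in basophils (1.28 ± 0.23, adjusted p = 9.3e-05) and Cd9 was 1.70-fold higher (0.77 ± 0.22, adjusted p = 0.0061), the latter with an adjusted p of 0.054 without Control 2.

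**Figure D3:**
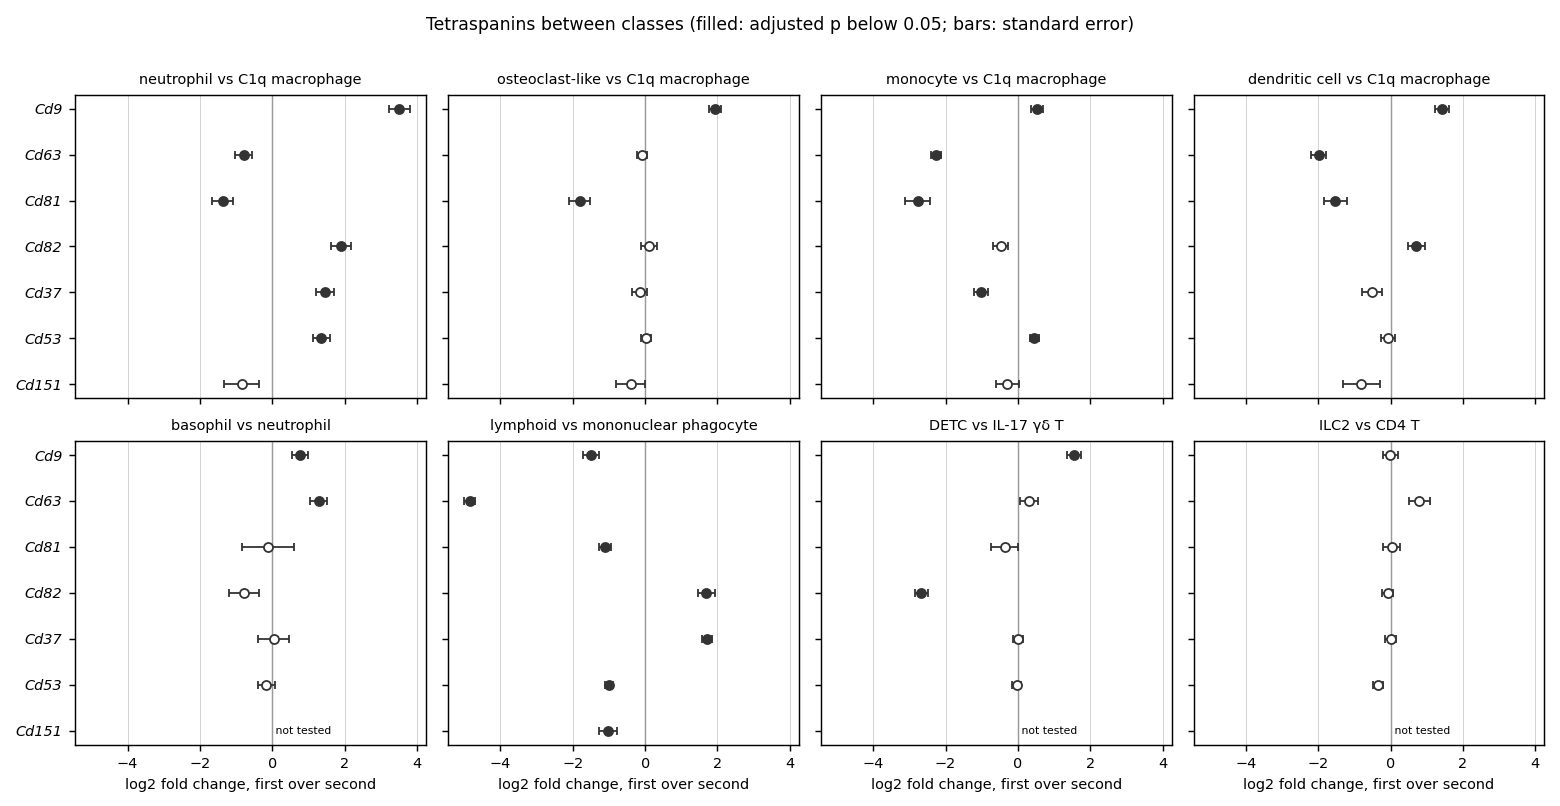
Log2 fold change of each tetraspanin (rows) in 8 class pairs (panels), first class over second, with the standard error of edgeR's fit as bars and filled points for an adjusted p below 0.05. Cd9 lies to the right of 0 for neutrophils (3.51), osteoclast-like macrophages (1.94) and dendritic cells (1.42) against C1q macrophages, and Cd63 lies at -4.85 for lymphoid cells against mononuclear phagocytes.

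The T and innate lymphoid cells together differed from the mononuclear phagocytes together in 7 of 7 tetraspanins, against 60.5% of 11183 genes. Cd63 showed the largest difference of the 7, 28.9-fold lower in lymphoid cells (-4.85 ± 0.16, adjusted p = 2.0e-08). Cd9 (-1.49 ± 0.22, adjusted p = 2.4e-04), Cd81 (-1.12 ± 0.17, adjusted p = 3.0e-04), Cd53 (-0.999 ± 0.12, adjusted p = 6.1e-05) and Cd151 (-1.03 ± 0.24, adjusted p = 0.0042) were also lower in lymphoid cells. Cd82 (1.69 ± 0.24, adjusted p = 1.8e-04) and Cd37 (1.71 ± 0.15, adjusted p = 5.8e-06) were higher. For Cd81 the adjusted p was 0.060 when cells of over 3000 genes were kept. The sums join unlike classes. CD4 T cells (64.5 to 99.1 CPM of Cd81) and ILC2 (53.9 to 122 CPM) lay above monocytes (5.95 to 40.1 CPM) and osteoclast-like macrophages (5.55 to 39.8 CPM). The other lymphoid classes had medians of 11.3 to 16.5 CPM. For Cd9, DETC and NK cells overlapped with monocytes and C1q macrophages.

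The γδ T cell classes differed in 2 of 6 tetraspanins, against 45.2% of 8060 genes, and these moved in opposite directions. Cd82 was 6.38-fold lower in DETC than in IL-17 γδ T cells (-2.67 ± 0.18, adjusted p = 8.7e-12), and Cd9 was 2.94-fold higher (1.55 ± 0.20, adjusted p = 6.9e-07). DETC held 241, 209, 258 and 174 CPM of Cd9 and IL-17 γδ T cells 76.5, 37.3, 149 and 38.0 CPM, so DETC were higher in 4 of 4 libraries. The 8 skin epithelium markers, all detected in both classes, summed to 1392, 610, 967 and 793 CPM in DETC and to 1163, 488, 1084 and 521 CPM in IL-17 γδ T cells. The libraries with the most Cd9 in IL-17 γδ T cells were thus those with the most epithelial RNA, and the part of that RNA in the Cd9 level was not tested. Between ILC2 and CD4 T cells edgeR passed 0 of 6 tetraspanins, against 8.18% of 5810 genes, with 2 at an unadjusted p under 0.05 and 0 by DESeq2. For Cd81 the 95% interval of that difference ran from -0.47 to 0.53 on the log2 scale.

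Other genes of the tetraspanin system were read from 3 lists, and only the marker genes of the classes compared were left out. Markers of other classes stayed in, among them Ifitm1 (basophils) and, outside the lymphoid comparisons that use them, Cd4 and Cd5 (CD4 T cells). These genes helped to place cells, so the partner list is not free of the gate, and the part of this was not tested. The share of a list that passed is given against that of all genes in the same pair. Between lymphoid cells and mononuclear phagocytes, 2 of 11 other tetraspanins tested were higher in lymphoid cells and 7 were lower (81.8% passed, against 60.5% of all genes), with a median of -0.83 against 0.02 for all genes. Those with the largest differences were Tspan33 (-4.41), a partner of the protease ADAM10, Tspan2 (4.05) and Tspan3 (-3.15). Of 41 genes of exosome formation and release, 7 were higher and 26 lower (80.5%). Among them Rab31, an endosomal GTPase, differed by -4.37 and the GTPases of granule and exosome docking, Rab27b and Rab27a, by 4.09 and 3.13. Of 19 genes of tetraspanin partner proteins, 3 were higher and 13 lower (84.2%), led by Cd36 (-6.18), a scavenger receptor, Cd2 (6.15), a T cell adhesion receptor, and H2-Aa (-5.53), an MHC class II chain.

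Between DETC and IL-17 γδ T cells, 6 of 8 other tetraspanins were higher in DETC and 0 lower (75% passed, against 45.2% of all genes), with Tspan4 (4.60), Tspan9 (3.55) and Tspan2 (1.72) in front and a median of 1.16 against 0.06 for all genes. Tspan4 held 46.1 ± 8.8 CPM (SD, n = 4) in DETC and 1.91 ± 0.90 CPM (SD, n = 4) in IL-17 γδ T cells. Of 38 exosome genes 8 were higher and 10 lower, 47.4% and so close to the share of all genes, led by Rab27b (5.95), Mvb12b (3.18) and Sdc4 (-2.82), the last the gene of syndecan-4, whose cytoplasmic tail binds syntenin. Of 15 partner genes 8 were higher and 5 lower (86.7%), led by Cd5 (-3.54), Ifitm1 (2.66) and Cd2 (2.32).

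In neutrophils against C1q macrophages, 1 of 8 other tetraspanins was higher and 3 lower (50% passed, against 55.2% of all genes), led by Tspan32 (-4.61), Tspan4 (-3.52) and Tspan3 (-2.88). Of 39 exosome genes 14 were higher and 9 lower, 59.0% and so close to the share of all genes, led by Rab27a (3.16), Sdc4 (-2.80) and Vamp7 (-2.45), a SNARE of lysosome exocytosis. Of 16 partner genes 4 were higher and 6 lower (62.5%), led by Ifitm1 (6.55), which encodes the CD225 partner of CD81, Cd36 (-5.32) and H2-Aa (-5.09). In osteoclast-like against C1q macrophages 1 of 8 other tetraspanins passed, Tspan32 (-2.77), which is 12.5% against 6.42% of all genes. Of 38 exosome genes 2 passed (5.26%), Sdc1 (1.59) and Rab31 (-0.74). Of 16 partner genes 1 was higher, Ifitm1 (1.52), and 2 were lower, Cd4 (-2.93) and H2-Aa (-0.93), 18.8% in all.

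In dendritic cells against C1q macrophages 2 of 9 other tetraspanins were higher and 4 lower (66.7% passed, against 35.7% of all genes), led by Tspan4 (-4.57), Tspan33 (3.44) and Tspan13 (3.16). There 2 of 39 exosome genes were higher and 9 lower (28.2%, under the share of all genes), and Sdcbp, the gene of the exosome adaptor syntenin, differed by -2.13. Of 17 partner genes 6 were higher and 8 lower in dendritic cells (82.4%), with Ifitm1 at 5.85. Monocytes had 1 of 8 other tetraspanins higher than C1q macrophages and 3 lower, with Tspan4 at -4.01 (50% passed, against 27.1% of all genes). In that pair 5 of 38 exosome genes were higher and 4 lower (23.7%), and 5 of 17 partner genes were higher and 6 lower (64.7%). In basophils against neutrophils the 1 other tetraspanin tested, Tspan13, was lower (-1.59), 3 of 19 exosome genes were higher and 5 lower (42.1%, against 51.1% of all genes), and 1 of 6 partner genes was higher and 3 lower (66.7%). Between ILC2 and CD4 T cells 0 of 4 other tetraspanins passed, with 2 higher and 1 lower of 33 exosome genes (9.09%, close to the 8.18% of all genes) and 4 higher and 4 lower of 14 partner genes (57.1%).

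The study asked what hucMSC-Exosomes do to wound leukocytes, and here the comparison was 2 hucMSC-Exo against 2 Control libraries in 8 populations. Groups are those of the titles, which the counts of neutrophil-like cells put in doubt, so the directions below hold under the titles only. Over all kept cells Cd9 held 192 and 423 CPM in Control and 346 and 349 CPM in hucMSC-Exo, and Cd63 262 and 424 against 348 and 263 CPM. Cd81 held 42.1 and 41.4 CPM in Control and 56.8 and 36.6 CPM in hucMSC-Exo. For these 3 genes the Control and hucMSC-Exo ranges overlapped, as they did for Cd82 (93.7 and 109 against 105 and 134 CPM), Cd37 (125 and 82.4 against 90.4 and 98.2 CPM) and Cd53 (312 and 500 against 327 and 470 CPM). Cd151 was lower in both hucMSC-Exo libraries, by 0.41 ± 0.24 on the log2 scale, and did not pass the test.

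By edgeR 0 of 53 tests of a tetraspanin between hucMSC-Exo and Control passed, 0 had an unadjusted p under 0.05 and the smallest adjusted p was 0.998. DESeq2 also passed 0. The percentage of all genes that passed was 0.0 in 6 of the populations, 0.013 (1 of 7697 genes) in DETC and 0.0197 (1 of 5089 genes) in osteoclast-like macrophages. Standard errors of the tetraspanins' log2 fold changes ran from 0.18 to 0.70, so moderate differences were not detectable with these libraries grouped by title. The part of the doubtful grouping in that spread was not tested. The nearest to the threshold by unadjusted p was Cd81 in C1q macrophages, at 90.8 and 74.9 CPM in Control and 106 and 151 CPM in hucMSC-Exo (log2 fold change 0.64 ± 0.30, 95% interval -0.06 to 1.34). In neutrophils Cd9 stood at 749 and 2022 CPM in Control and 1902 and 1491 CPM in hucMSC-Exo (0.36 ± 0.50, 95% interval -0.74 to 1.47). Of the 3 lists, 0 genes passed in any population. Fewer cells of a class within all kept cells and less RNA per cell cannot be told apart in these sums.

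**Figure D4:**
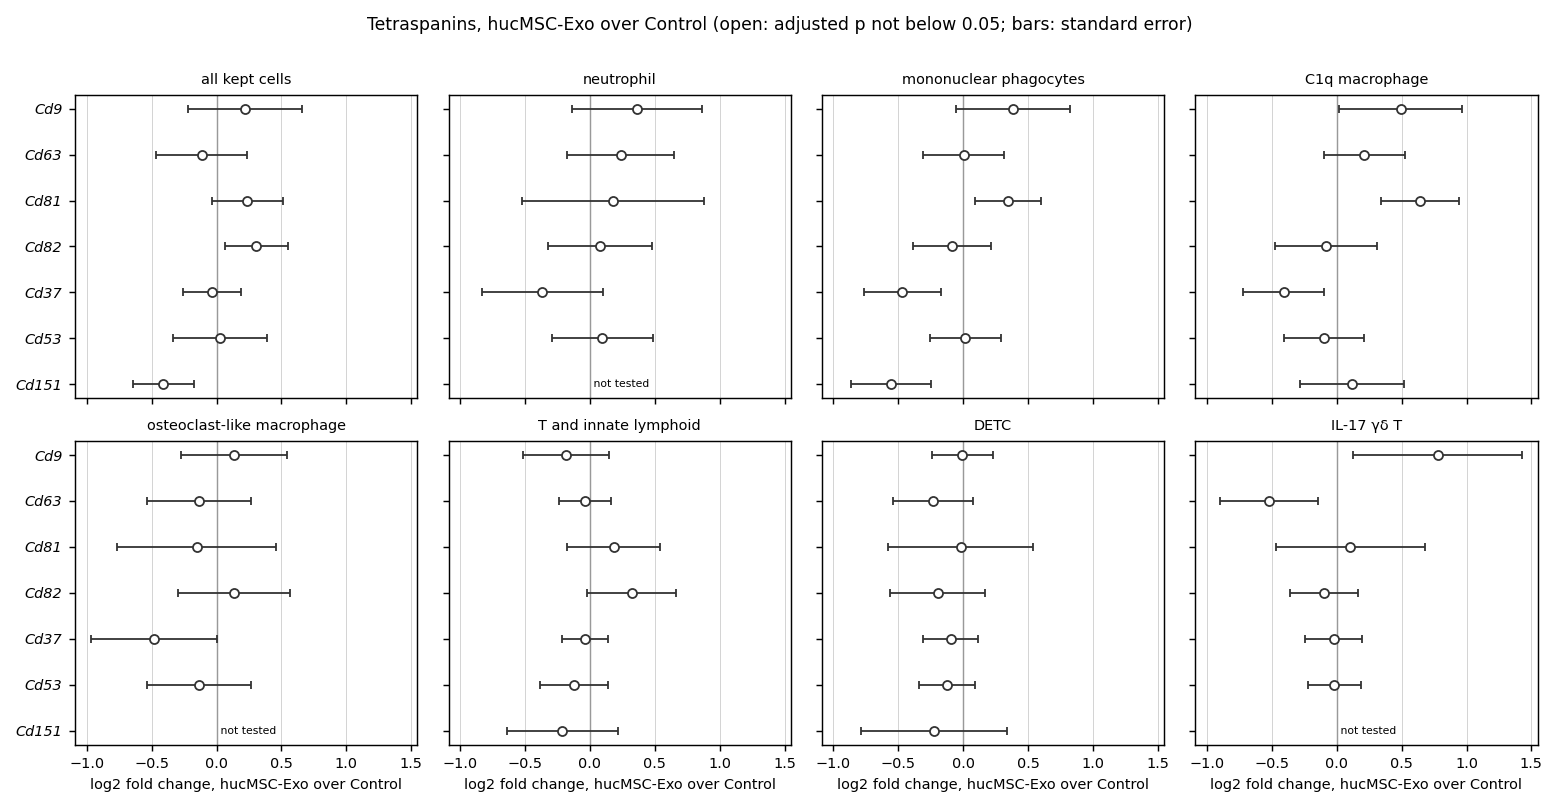
Log2 fold change of each tetraspanin (rows), hucMSC-Exo over Control, in 8 populations (panels), with the standard error of edgeR's fit as bars and open points for an adjusted p that is not below 0.05. Every point is open, and the bars have standard errors of 0.18 to 0.70.

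The shares of cells with a UMI, at 1000 UMIs per cell, gave 56 exact two-sided permutation tests, in which 2 libraries against 2 cannot give a p under 0.333 and every adjusted p was 1. Where a tetraspanin was found in at least 1% of the cells, the library shares of hucMSC-Exo and Control did not overlap in 8 of 51 cases, against 29.1% of 52709 such cases over all genes. Cd81 was among them in C1q macrophages, at 6.06% and 6.76% of cells in Control and 7.95% and 10.7% in hucMSC-Exo. It was also higher in hucMSC-Exo in osteoclast-like macrophages. The same held in all mononuclear phagocytes (3.83% and 3.89% against 4.41% and 4.16%), which include both of these classes and are not a separate observation. The other cases were Cd63, higher in lymphoid cells and lower in osteoclast-like macrophages, Cd53, higher in DETC and lower in IL-17 γδ T cells, and Cd82, lower in osteoclast-like macrophages, of which Control 1 held 25 cells. For Cd53 in DETC, Cd63 in lymphoid cells and Cd81 and Cd82 in osteoclast-like macrophages, the fitted log2 fold change of the level had the opposite sign.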

How the data were processed

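Droplet single-cell RNA sequencing (10x Genomics 3′ chemistry) was performed by the authors on 4 libraries, 1 per mouse. The deposited values are raw UMI counts per gene and cell, made with Cell Ranger 6.1.2 on mm10 per the labels. The study's methods remove doublets with DoubletFinder and separate Ptprc+ cells. Whether the deposited matrices are from before or after these steps is not given in the sources used here, and no cell annotation was used. The members and lists were chosen with earlier results of these data known.

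Cells were filtered at 200 to 3000 genes and 10% mitochondrial counts, the limits the study describes. A cell took the class with the highest mean z score of its gate markers (log1p of counts per 10000), given at least 3 markers with a UMI and a mean z of 0.25. In 272 cells the 2 best leukocyte classes both passed with scores less than 0.1 apart, so their class was nearly a tie. Held-out markers, available for the 8 myeloid, basophil and mast classes, were all higher in their own class. The lymphoid classes had none, and 2 ILC2 gate genes (Arg1 and Lpcat2) were lower in theirs. Gate and Leiden clusters agreed unevenly. Of the 952 cells of the main neutrophil-like cluster 98.3% were gated the same. That share was 39.6% of 541 cells in the osteoclast-like cluster and 37.6% of 338 cells in the larger dendritic cell-like cluster. Scrublet's own threshold marked 0.466% of cells and was not used. UMIs were summed per library and class (at least 10 cells) and tested with edgeR 4.0.16 in R 4.3.3 (TMM, filterByExpr, glmQLFit, glmQLFTest, Benjamini-Hochberg over all genes tested, threshold 0.05). The fit was checked on simulated counts with a fixed dispersion and few changed genes. The spread and the share of changed genes of these data were not copied, so the check gives no measure of power here. The library was a block between classes. CPM are per 1000000 UMIs of the class. The 95% intervals of log2 fold changes come from the SE and edgeR's total degrees of freedom. Genes were named as all 7 tetraspanins, and up to 3 genes per list and comparison with the largest absolute log2 fold change past the threshold. Cd151 was below the count filter in 3 class pairs and 3 populations. Libraries come from separate mice. Alternatives were DESeq2 1.42.0, no TMM, no count filter, no upper gene limit, no cells of the top 5% of Scrublet scores (added after the data were seen), Leiden clusters made without the tetraspanins (scanpy 1.11.5), a stricter gate, no library block, a replicate block, other depths and leaving out each library.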

Additional observations from a re-analysis of the deposited data

How the results depend on the processing

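The number of tetraspanin differences between classes, 28 of 53, ranged from 24 to 30 over the alternatives (24 to 28 with a library left out), and 23 of the 28 were kept in every one. The other 5 each lost the call somewhere: Cd9 and Cd53 in monocytes, Cd82 in dendritic cells, Cd9 in basophils and Cd81 in lymphoid cells, with values given in part beside each. Cd9 in monocytes against C1q macrophages turned to -0.070 with Leiden clusters. Cd53 in osteoclast-like against C1q macrophages, 0.02 and not called, turned to -0.0093 without a count filter, to -0.010 with the stricter gate and to -0.83 without the upper gene limit, and ran from -0.011 to 0.040 with a library left out. The cause of these was not tested. Without TMM the median of all genes moved by -0.43 in neutrophils against C1q macrophages and by 0.36 in lymphoid cells against mononuclear phagocytes, and by -0.21 to 0.15 in the other pairs.

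Between hucMSC-Exo and Control 0 tetraspanin tests passed in every alternative. With the replicate block of the titles it was also 0. Deviations of same-numbered libraries correlated at r = 0.21 over 5245 genes, with only 2 pairs. Same-numbered libraries were also alike in composition. Neutrophil-like cells made up 5.67% and 6.64% of kept cells in Control 1 and hucMSC-Exo 1, against 16.6% and 27.3% in Control 2 and hucMSC-Exo 2. For T and innate lymphoid cells these were 62.5% and 59.0%, against 40.9% and 41.9%. What such libraries share beyond a number is not given in the labels and was not tested. Over all kept cells Cd37 turned to 0.0099 without the upper gene limit and Cd53 to -0.029 without TMM. With a library left out, the values ran from -0.31 to 1.04 for Cd9, -0.50 to 0.40 for Cd63, -0.12 to 0.53 for Cd81, -0.22 to 0.17 for Cd37 and -0.36 to 0.53 for Cd53. The 8 shares that did not overlap became 14 of 55 at 2000 UMIs per cell, against 28.8% over all genes, and 26 to 33 of 49 to 51 with a library left out, against 59.1% to 73.5% over all genes. With 2 libraries a group and as few as 54 neutrophils or 25 osteoclast-like macrophages in Control 1, depth and cell number limit the comparison.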

Other observations

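Over 52 sums of a class in a library, the log levels of 5167 genes with a mean of at least 20 CPM were compared with those of each tetraspanin by Pearson's r, as a description, since sums of a library share its depth and its free RNA. Cd63 was most like Ier3 (r = 0.90), Rab31 (0.88) and Ftl1 (0.88). Cd9 was most like Litaf (0.81), Riok3 (0.77) and Tnfrsf23 (0.75), and Cd53 most like Mxd1 (0.84), Acod1 (0.83) and Ifitm2 (0.81). Cd37 was most like Ttc14 (0.90), Bcl7c (0.88) and Zfp266 (0.875), and Cd82 most like Stk4 (0.78), Ikzf3 (0.77) and Icos (0.76). Cd81 had no gene above 0.61 (Plgrkt). Among the tetraspanins themselves, Cd63 stood against Cd37 (-0.62) and Cd82 (-0.61) and with Cd53 (0.58).

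Cells in which UMIs of Cd9, Cd63 and Cd81 were found together, at 1000 UMIs per cell, numbered 3 of 921, 6 of 1995, 6 of 1378 and 3 of 1941 (first the Control and then the hucMSC-Exo libraries), or 0.326%, 0.301%, 0.435% and 0.155% of cells. No such cell was among the T and innate lymphoid cells of the libraries, which numbered 591, 840, 828 and 834.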
